A study of Mus musculus with 48 samples.

Results

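The 9 genes described here make, recapture or sense the catecholamines dopamine and noradrenaline: Th, Dbh, Slc6a3, Slc6a2, Drd1, Drd2, Drd3, Adra2a and Adrb1. DNA methylation was read at them in the amygdala of adult male mice by MBD-seq, in which sheared DNA is captured with a methyl-CpG-binding protein domain and sequenced, so that more reads come from DNA with more methylated CpGs. A locus is a stretch of the genome where the authors called a coverage peak. Each gene was given the loci that overlap its GENCODE M21 gene body (GRCm38) or the 5 kb on either side, which gave 49 of the 187695 loci in the count table. Loci were assigned to the genes by position only, without a measured value. The genes themselves were chosen with earlier results of these data known.

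The 48 libraries came from 48 male mice of 4 months on a C57BL/6 background, 8 in each of 6 groups. The mice were Tph2+/+, Tph2+/- or Tph2-/- offspring of Tph2+/- parents. Tph2 encodes the enzyme that makes serotonin in neurons, and the null allele is constitutive, so cells lacked it from conception on. Each genotype was reared under standard conditions (C) or with maternal separation (MS), in which whole litters spent 3 h daily without their dam between postnatal days 2 and 15. The males of both conditions had gone through behavioural tests that ended with encounters with an intruder male. Amygdala tissue of both hemispheres was blended per mouse, so that a change in the methylation of a cell type and a change in the share of that cell type cannot be told apart. Mice of 1 litter share a dam, and the labels give no litter. Genotypes were taken from the labels, since captured DNA does not measure the Tph2 transcript.

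Library totals ran from 7724481 to 14133801 counts. The study left out 2 Tph2-/- MS libraries for low counts, shifted signal densities and extra small peaks, and the labels do not name them. The values below leave out the 2 lowest totals of that group (replicates 3 and 7), which need not be the same libraries. This leaves 46 libraries and 6 in the Tph2-/- MS group. The lowest total of all, 7724481 counts, is that of Tph2+/- C replicate 5, which was kept. The sample numbers in the labels follow the rearing condition: S1 to S17 and S42 to S48 are C, and S18 to S41 are MS, so sample order and rearing cannot be told apart. The MS libraries S18 to S26 differed on average in how their counts depended on CpG density. The slope of centred log2 counts on CpG density averaged 0.091 ± 0.088 (SD, n = 8) in them. It averaged -0.021 ± 0.036 (n = 17) in S1 to S17, -0.034 ± 0.042 (n = 14) in S27 to S41 and -0.0495 ± 0.040 (n = 7) in S42 to S48. Single libraries overlapped, with slopes of -0.051 to 0.242 in S18 to S26 and -0.103 to 0.058 in S1 to S17.

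In catecholamine neurons, tyrosine is turned into L-DOPA by tyrosine hydroxylase (Th), L-DOPA into dopamine, and dopamine into noradrenaline by dopamine beta-hydroxylase (Dbh). The transporters encoded by Slc6a3 (dopamine) and Slc6a2 (noradrenaline) return the transmitter to the terminal, and receptors on target cells couple to G proteins that raise (Drd1, Adrb1) or lower (Drd2, Drd3, Adra2a) cyclic AMP. The cell bodies of these neurons lie in the midbrain and the brainstem and send axons to the amygdala, whereas receptor genes are transcribed by cells of the amygdala itself. Methylation at CpG-rich promoters is, as a general rule, low, and methylation within gene bodies is common in both active and silent genes.

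At 8 of the 9 genes a promoter sequence of RefSeq (GRCm38.p6, 250 bases before to 50 after the start) could be matched by symbol. The promoters of Drd2 (23 CpGs), Drd1 (23), Slc6a3 (20), Adra2a (28) and Adrb1 (28) overlapped no locus. Among all 8701 mouse promoters with 20 or more CpGs, 1.63% overlapped one, against 10.5% of all 32851 promoters. The Th promoter held 15 CpGs and lay inside a locus. Of the 5446 promoters with 11 to 20 CpGs, 9.25% overlapped a locus, and Slc6a3 was among those that did not. Dbh and Drd3 had promoters of 2 CpGs each, of which that of Drd3 overlapped a locus and that of Dbh lay 2714 bp from the nearest one. The start used for the Drd3 promoter lies inside the gene. The GENCODE body of Drd3 begins 8.2 kb further upstream, at chr16:43754026, and the RefSeq body at chr16:43754015. No locus of the gene overlapped either of these. Drd1 has a second RefSeq start further downstream, whose window of 6 CpGs also overlapped none. The 4 sequences below show both kinds, 5′ to 3′ on the strand of the gene, with every CG in capitals. The first pair overlapped loci, and the second pair did not.

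Th promoter, chr7:142899946-142900245, minus strand, 15 CpGs:
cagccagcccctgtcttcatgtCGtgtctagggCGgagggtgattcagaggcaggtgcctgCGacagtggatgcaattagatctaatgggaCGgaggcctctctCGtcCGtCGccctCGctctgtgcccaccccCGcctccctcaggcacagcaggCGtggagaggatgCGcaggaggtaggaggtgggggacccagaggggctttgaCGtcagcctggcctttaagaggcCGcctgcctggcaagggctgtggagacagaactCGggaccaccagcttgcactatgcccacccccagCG
Drd3 promoter, chr16:43761971-43762270, plus strand, 2 CpGs:
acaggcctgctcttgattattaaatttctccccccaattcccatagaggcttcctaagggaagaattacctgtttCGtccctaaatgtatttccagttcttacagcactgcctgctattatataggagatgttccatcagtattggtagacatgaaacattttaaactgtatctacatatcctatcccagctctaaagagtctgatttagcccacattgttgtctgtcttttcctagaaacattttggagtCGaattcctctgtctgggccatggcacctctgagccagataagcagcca
Drd2 promoter, chr9:49340153-49340452, plus strand, 23 CpGs:
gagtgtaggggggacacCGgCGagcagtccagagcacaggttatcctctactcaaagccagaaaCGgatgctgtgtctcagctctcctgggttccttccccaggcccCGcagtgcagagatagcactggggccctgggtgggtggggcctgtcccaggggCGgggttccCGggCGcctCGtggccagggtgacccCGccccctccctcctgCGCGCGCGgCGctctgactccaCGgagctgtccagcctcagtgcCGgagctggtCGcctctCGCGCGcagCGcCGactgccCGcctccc
Adra2a promoter, chr19:54045009-54045308, plus strand, 28 CpGs:
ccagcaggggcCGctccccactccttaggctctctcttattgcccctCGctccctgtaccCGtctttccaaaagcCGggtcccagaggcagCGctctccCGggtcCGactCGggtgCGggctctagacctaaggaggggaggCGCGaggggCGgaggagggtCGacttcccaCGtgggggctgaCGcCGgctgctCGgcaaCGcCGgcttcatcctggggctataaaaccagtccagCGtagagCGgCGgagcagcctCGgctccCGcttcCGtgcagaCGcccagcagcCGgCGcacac

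A promoter without a locus is one where no coverage peak entered the count table, which gives no methylation level for it. The 20-CpG mark was chosen after the promoters of the members had been seen.

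**Figure D1:**
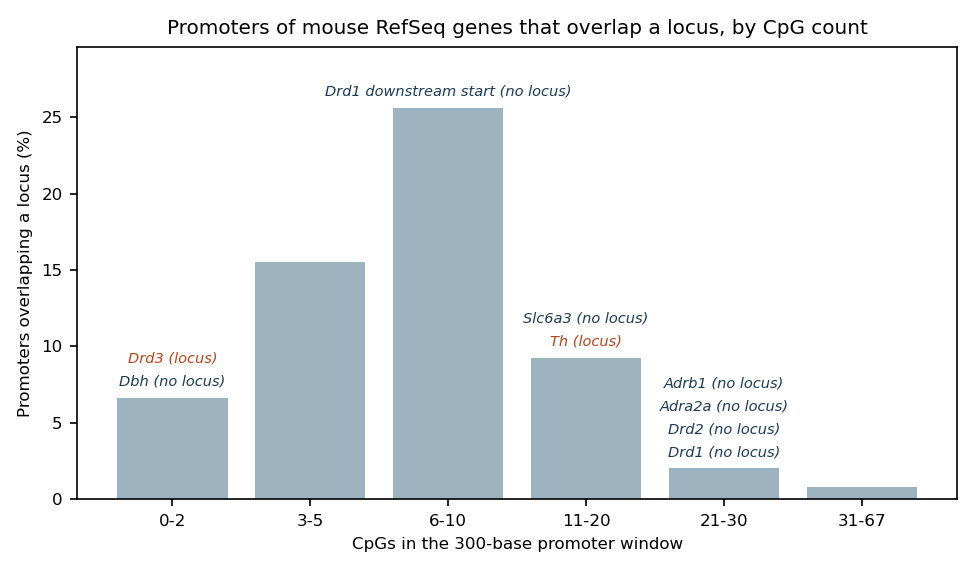
Bars give the percentage of RefSeq promoters (300 bases) that overlap a locus, by the number of CpGs in the window, from 0 to 67. The names above each bar place the 8 member genes with a promoter sequence in their class. The share is highest, 25.6%, at 6 to 10 CpGs and 2.01% at 21 to 30, the class of Adra2a, Adrb1, Drd2 and the upstream start of Drd1.

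Most of the 49 loci lay inside genes. Coding exons were touched by 19, untranslated exons alone by 4, and 16 lay in introns, with 7 upstream of a gene and 3 downstream. They were 431 to 2812 bp wide and held 0.242 to 2.74 CpGs per 100 bp. The median was 1.58 CpGs per 100 bp, against 1.82 over all loci. Their mean level ran from 1.24 to 14.7 CPM (counts scaled to the TMM-adjusted library total, as in edgeR), with a median of 2.44 CPM against 2.48 CPM over all loci, and 23 of the 49 were above that overall median. Within the 49, the level followed the width of the locus (Spearman's rho 0.907 across loci, a description, since wide loci collect more counts). Levels are therefore compared between genes per kb of locus. Within a gene, the highest and lowest loci named below are those by CPM, and the order per kb can differ.

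**Figure D2:**
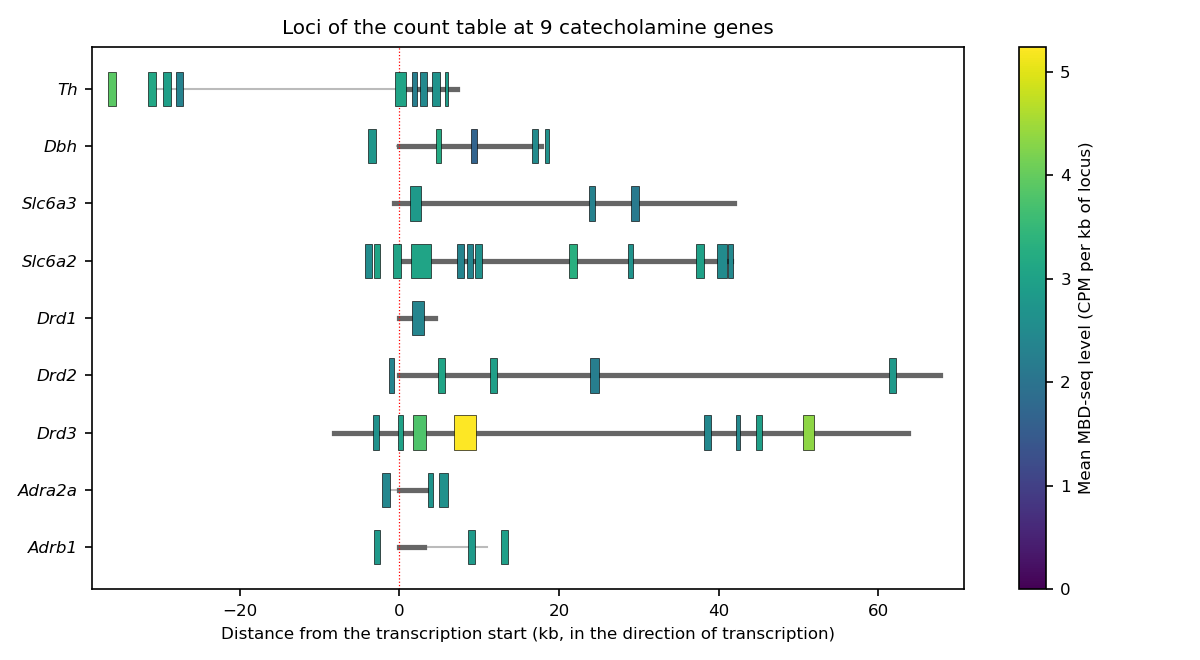
Each box is 1 of the 49 loci, drawn to scale along the gene by its distance in kb from the RefSeq start of the promoter table (the GENCODE start for Slc6a2), and its colour gives the mean level in CPM per kb of locus. Thick grey lines are RefSeq gene bodies, thin lines the GENCODE M21 bodies where they reach further, and the yellow box is the Drd3 locus at 5.24 CPM per kb.

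The synthesis genes had loci in both the 5′ and the 3′ part of the RefSeq gene. Th (ENSMUSG00000000214.11, chr7:142892752-142931128, minus strand) had 9 loci and a summed level of 23.3 ± 2.2 CPM (SD, n = 46). The locus over its RefSeq start, chr7:142899188-142900591, which contains the promoter sequence above and touches a coding exon, was the highest of the gene at 4.29 ± 0.99 CPM. It ranged from 2.42 to 6.77 CPM over the libraries. Per kb it was at 3.055 CPM, below the upstream locus chr7:142935434-142936454 at 3.904 CPM. The GENCODE body of Th extends beyond the RefSeq body, and 4 of the 9 loci lie outside the RefSeq body and its flanks. Per kb, these 4 were at 3.11 ± 0.36 CPM and the 5 others at 2.73 ± 0.35 CPM.

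Dbh (ENSMUSG00000000889.8, chr2:27165233-27183200, plus strand) had 5 loci that summed to 9.46 ± 1.35 CPM. The one nearest its start, chr2:27161551-27162543, ended at -2690 bp from the GENCODE start and was also the highest, at 2.74 ± 0.75 CPM. It overlaps the annotated transcript Dbhos as well, and MBD-seq has no strand, so that it cannot be given to either gene alone.

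The transporter genes differed in the number of their loci. Slc6a2 (ENSMUSG00000055368.14, chr8:92960079-93001667, plus strand) had 12, the most of the 9 genes, which covered 24.1% of its window and summed to 34.9 ± 3.2 CPM. One of them, chr8:92959267-92960329, lay over the GENCODE start at 3.23 ± 0.71 CPM, and the highest, chr8:92961565-92964015 in an intron and 632 bp from the nearest annotated start, had 7.52 ± 1.47 CPM. Slc6a3 (ENSMUSG00000021609.6, chr13:73536747-73578672, plus strand) had 3 loci over 6.00% of a window of similar size, summing to 7.79 ± 1.15 CPM. Its locus nearest the start, chr13:73538037-73539495, began 1290 bp into the gene, touched a coding exon and was the highest at 4.11 ± 0.88 CPM.

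Of the dopamine receptor genes, Drd1 (ENSMUSG00000021478.6, chr13:54051183-54055705, minus strand) had 1 locus, chr13:54052617-54054052, in its coding exon. Its level was 3.42 ± 0.89 CPM, with 18 to 66 counts per library. Drd2 (ENSMUSG00000032259.8, chr9:49340627-49408177, plus strand) had 5 loci that summed to 11.7 ± 1.8 CPM. The nearest to its start, chr9:49339111-49339760, ended at -867 bp from the GENCODE start and was the lowest of the 5 at 1.54 ± 0.52 CPM. The highest, chr9:49345301-49346142, lay in an intron at 2.57 ± 0.68 CPM, with the intronic locus chr9:49351713-49352587 also at 2.57 CPM.

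Drd3 (ENSMUSG00000022705.5, chr16:43754026-43822932, plus strand) had 8 loci and the highest summed level, 37.2 ± 3.1 CPM. The locus over the start used for its promoter, chr16:43762090-43762723, was at 1.90 ± 0.55 CPM. An intronic one, chr16:43769065-43771876, held 14.7 ± 1.8 CPM and was the highest of all 49. Of the bases of that locus 76.6% are marked as repeats in the reference, and 88.3% in the neighbouring locus chr16:43763931-43765561. How reads from repeats were placed was not tested.

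The adrenergic receptor genes are short and had few loci. Adra2a (ENSMUSG00000033717.6, chr19:54044151-54048982, plus strand) had 3 loci, which summed to 7.24 ± 1.17 CPM. One ended at -36 bp from the GENCODE start and -1144 bp from the RefSeq start (chr19:54043088-54044115, 2.495 ± 0.632 CPM), and the highest lay 3′ of the gene (chr19:54050234-54051326, 2.87 ± 0.80 CPM). Adrb1 (ENSMUSG00000035283.5, chr19:56722199-56733113, plus strand) had 3 loci that summed to 7.08 ± 1.45 CPM. The nearest to its start ended at -2477 bp from the RefSeq start at 1.89 ± 0.60 CPM (chr19:56718967-56719640), and the highest lay in an intron of the longer GENCODE model at 2.75 ± 0.66 CPM (chr19:56730674-56731644).

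Per kb of locus the genes were alike except for Drd3. Their loci had a median of 2.71 CPM per kb, against 2.76 over all loci, so this level does not set them apart. Drd3 stood at 3.86 ± 0.32 CPM per kb (SD, n = 46), followed by Th at 2.91 ± 0.27, Adrb1 at 2.86 ± 0.58, Slc6a2 at 2.80 ± 0.26, Drd2 at 2.67 ± 0.41, Adra2a at 2.57 ± 0.41, Dbh at 2.54 ± 0.36, Slc6a3 at 2.498 ± 0.368 and Drd1 at 2.38 ± 0.62. The step from Drd3 to Th was 3.00 times the SD of Drd3, and no other neighbours in this order differed by more than 0.521 of the SD of the higher gene. Without its repeat-rich loci Drd3 was at 3.13 ± 0.40 CPM per kb over 6 loci. The scale of CPM per kb is the same for all genes, but CpG density differs between them, from 1.36 CpGs per 100 bp in the loci of Slc6a2 to 2.09 in that of Drd1.

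The summed levels changed little between the 6 groups. The highest group mean was 1.09 times the lowest for Drd3 and 1.19 times for Drd2, the smallest and the largest of these ratios. For every gene and each of its 15 pairs of groups the ranges of single libraries overlapped. This overlap was not counted over the other genes with a locus, so it does not set these genes apart. Tph2+/- C had the lowest mean of the 6 groups for 5 genes, Th, Dbh, Slc6a2, Drd1 and Drd3, which is a description of means that share libraries.

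**Figure D3:**
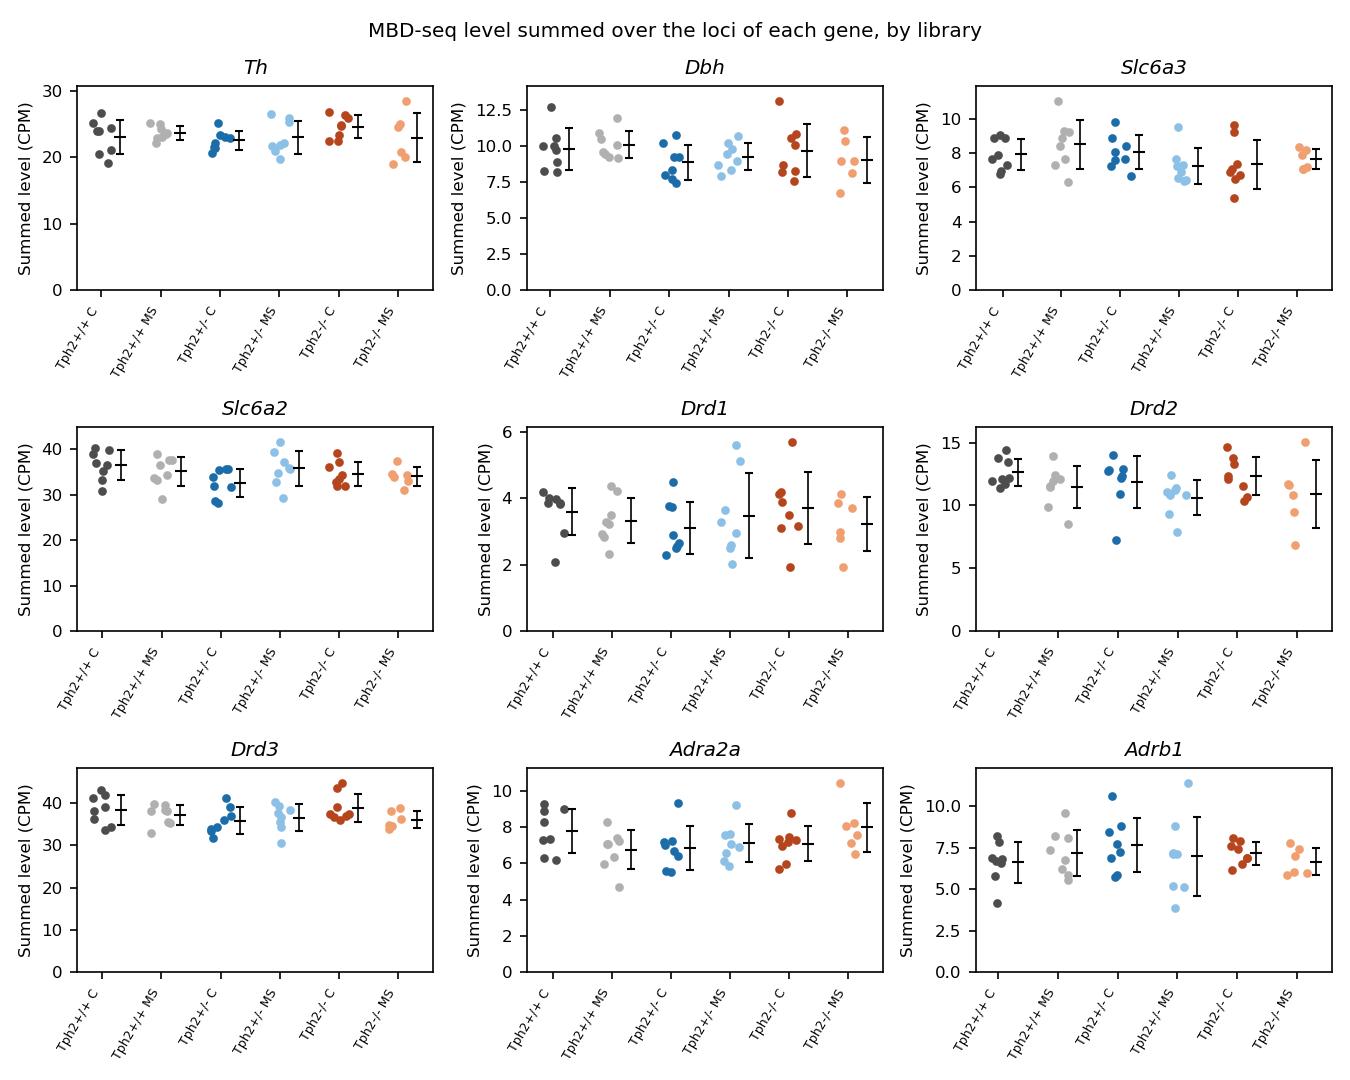
Each point is 1 library, and the vertical axis gives the MBD-seq level summed over the loci of the gene in CPM, from 0. Bars give the mean ± SD of each group (n = 8, and 6 for Tph2-/- MS), and in all 9 genes the groups overlap.

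The comparisons were those of the 2 × 3 design. GE1 is the difference between the MS effect in Tph2+/- and that in Tph2+/+ mice, and GE2 the same for Tph2-/- mice. The MS effect was also taken in each genotype and as the mean over the 3, and each mutant genotype was compared with Tph2+/+ over both rearing conditions. GE1, GE2 and the genotype comparisons share the Tph2+/+ libraries. A locus was called where its unadjusted p was under 0.01 and its absolute log2 fold change over 0.2, and Benjamini-Hochberg adjusted p-values over all loci were set beside them (edgeR, quasi-likelihood F-test). These limits follow those of the study.

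At these limits 3 of the 49 loci were called, each in 1 comparison, and none had an adjusted p under 0.05 in any of the 8. An Adra2a locus was called in GE1, where 0.626% of all loci were called, a Slc6a3 locus in Tph2-/- against Tph2+/+ mice (0.748% of all loci) and a Drd3 locus in Tph2+/- against Tph2+/+ mice (0.546%). No member locus was called in GE2 (0.558% of all loci), in the MS effect over genotypes (3.63%), or in the MS effect in Tph2+/+ (1.31%), Tph2+/- (0.779%) or Tph2-/- mice (1.48%). Since 1 of 49 loci is 2.04%, a single call is the smallest count that can be seen. The DESeq2 Wald test gave the same counts, and limma voom called 0 in GE1, 0 in Tph2+/- against Tph2+/+ mice and 1 in the MS effect over genotypes.

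At an unadjusted p under 0.05, edgeR passed 1 member locus in GE1 (3.71% of all loci), 1 in GE2 (3.36%) and 4 in the MS effect over genotypes (12.2%). Within single genotypes it passed 3 for Tph2+/+ (6.52%), 3 for Tph2+/- (4.36%) and 1 for Tph2-/- (7.11%). For the genotypes it passed 3 in Tph2-/- (4.08%) and 2 in Tph2+/- mice (3.47%). The shares of the 49 were 2.04 to 8.16%. The adjusted limit was passed by 0.0128% of all loci in the MS effect over genotypes, 0.0139% in Tph2-/- and 0.00213% in Tph2+/- mice, and by 0% in the other 5 comparisons. The smallest adjusted p of a member locus was 0.29, in the MS effect over genotypes. The median log2 fold change of the 49 ranged over the 8 comparisons from -0.14 (MS in Tph2-/-) to 0.09 (GE1), beside 0.01 and -0.01 for all loci in the same comparisons.

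The called Adra2a locus lies upstream of the gene for the alpha-2A receptor, which lowers cyclic AMP and, on noradrenergic terminals, curbs release. It had 20 CpGs in 1028 bp, and the 120 bases with the most CpGs hold 8 of them, on the plus strand with each CG in capitals.

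Adra2a locus, chr19:54043466-54043585:
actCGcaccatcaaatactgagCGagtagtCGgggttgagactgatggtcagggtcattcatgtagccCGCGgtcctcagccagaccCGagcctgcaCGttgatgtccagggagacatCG

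In Tph2+/+ mice its lowest, median and highest levels were 1.43, 2.97 and 3.88 CPM under C and 1.70, 2.24 and 3.27 CPM under MS. In Tph2+/- mice they were 1.29, 1.97 and 2.68 CPM under C and 2.16, 2.66 and 3.49 CPM under MS. In Tph2-/- mice they were 1.59, 2.23 and 3.32 CPM under C and 1.82, 2.52 and 3.55 CPM under MS. The MS median was thus lower than that of C in Tph2+/+ mice and higher in both mutant genotypes, and the ranges overlapped in all 3. The difference of the MS effects, GE1, was 0.76 on the log2 scale (SE 0.28, 95% interval 0.20 to 1.31, p = 0.00826 in the edgeR fit with n = 46, adjusted p = 1). In limma voom it was 0.71 with p = 0.0117 (n = 46). Without the MS libraries S18 to S26, Tph2+/+ MS replicates 4 to 8 and Tph2+/- MS replicates 3 to 8 remained. GE1 was then 0.65 and, as in limma voom, not past the limits. The call was also lost when 1 of 17 single libraries was left out, with a log2 value of 0.68 to 0.75. These were Tph2+/+ C replicates 1, 3, 4 and 5, Tph2+/- C replicates 1, 4, 5, 6 and 7, Tph2+/+ MS replicates 1, 3, 5, 7 and 8, and Tph2+/- MS replicates 2, 5 and 8.

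The other 2 Adra2a loci were not called in GE1. Their GE1 was -0.65 (95% interval -1.33 to 0.04) at the locus over the untranslated exon, chr19:54048799-54049492, and 0.44 (-0.12 to 0.99) at the one 3′ of the gene, so the 3 estimates had both signs. Summed over its 3 loci, Adra2a had a GE1 of 0.27 (95% interval -0.07 to 0.61). Its GE2 was 0.39 (SE 0.17, 95% interval 0.04 to 0.74, p = 0.0308 in the edgeR fit with n = 46, adjusted p = 0.9998 over all genes). Group medians of the summed level were 7.80 (C) and 7.09 CPM (MS) in Tph2+/+ mice, 6.83 and 6.998 CPM in Tph2+/- mice, and 7.23 and 7.83 CPM in Tph2-/- mice. With all 48 libraries, GE2 of Adra2a was 0.32 and did not pass 0.05. With the gene body alone, which leaves 1 locus, it was -0.16, in the opposite direction. It was also not past 0.05, at 0.30 to 0.36, on leaving out Tph2+/+ C replicate 1 or 8, Tph2-/- C replicate 3 or 6, Tph2+/+ MS replicate 3 or Tph2-/- MS replicate 6.

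The called Slc6a3 locus lies near the start of the dopamine transporter gene, the target of cocaine and of methylphenidate. It held 20 CpGs in 1459 bp, and its densest 120 bases hold 5.

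Slc6a3 locus, chr13:73538418-73538537:
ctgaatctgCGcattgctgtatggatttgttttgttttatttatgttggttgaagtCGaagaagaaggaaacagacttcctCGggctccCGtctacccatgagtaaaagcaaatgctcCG

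In Tph2+/+ mice its lowest, median and highest levels were 3.53, 4.28 and 4.90 CPM under C and 3.21, 5.14 and 6.32 CPM under MS. In Tph2-/- mice they were 2.51, 3.11 and 5.14 CPM under C and 2.497, 4.01 and 4.97 CPM under MS. In Tph2+/- mice the medians were 4.25 CPM under C and 3.93 CPM under MS. Both Tph2-/- medians were below the Tph2+/+ median of the same rearing condition, with overlapping ranges. The difference between Tph2-/- and Tph2+/+ mice was -0.32 on the log2 scale (SE 0.12, 95% interval -0.56 to -0.09, p = 0.00636 in the edgeR fit with n = 46, adjusted p = 0.9999), which is 0.798 times the Tph2+/+ level.
It was past the limit under all 9 alternative settings that gave a value, from -0.41 to -0.32. It was lost on leaving out 1 of 10 single libraries, with values of -0.31 to -0.27. These were Tph2-/- C replicates 2, 4, 7 and 8, Tph2+/+ C replicate 2, Tph2+/+ MS replicates 3, 4 and 6, and Tph2-/- MS replicates 5 and 8. The other 2 loci of Slc6a3 were not called, and the gene sum differed by -0.14 (95% interval -0.30 to 0.03).

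The called Drd3 locus lies in an intron of the D3 receptor gene, with 8 CpGs in 589 bp. It is 42138 bp downstream of the start used for the Drd3 promoter. Its level was the lowest among the 8 loci of the gene, at 1.45 ± 0.57 CPM with 4 to 28 counts per library. Its densest 120 bases hold 4 CpGs.

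Drd3 locus, chr16:43804541-43804660:
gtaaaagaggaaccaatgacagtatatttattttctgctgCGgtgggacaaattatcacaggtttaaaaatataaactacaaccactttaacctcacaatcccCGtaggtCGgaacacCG

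In Tph2+/+ mice the lowest, median and highest levels were 1.07, 2.00 and 2.47 CPM under C and 0.567, 1.58 and 2.67 CPM under MS. In Tph2+/- mice they were 0.549, 1.06 and 1.85 CPM under C and 0.470, 1.01 and 1.90 CPM under MS. The Tph2-/- medians were 1.37 and 1.35 CPM. The Tph2+/- medians were the lowest of the 3 genotypes under both conditions, and the ranges of all groups overlapped. The difference between Tph2+/- and Tph2+/+ mice was -0.60 (SE 0.20, 95% interval -0.997 to -0.212, p = 0.00283 in the edgeR fit with n = 46, adjusted p = 1), or 0.658 times the Tph2+/+ level. It was past the limits on leaving out each of the 46 libraries in turn, and past them in 8 of 9 alternatives. In limma voom it was -0.53 with p = 0.0117 (n = 46), which misses the limit of 0.01. The Drd3 sum differed by -0.06 (95% interval -0.15 to 0.03).

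**Figure D4:**
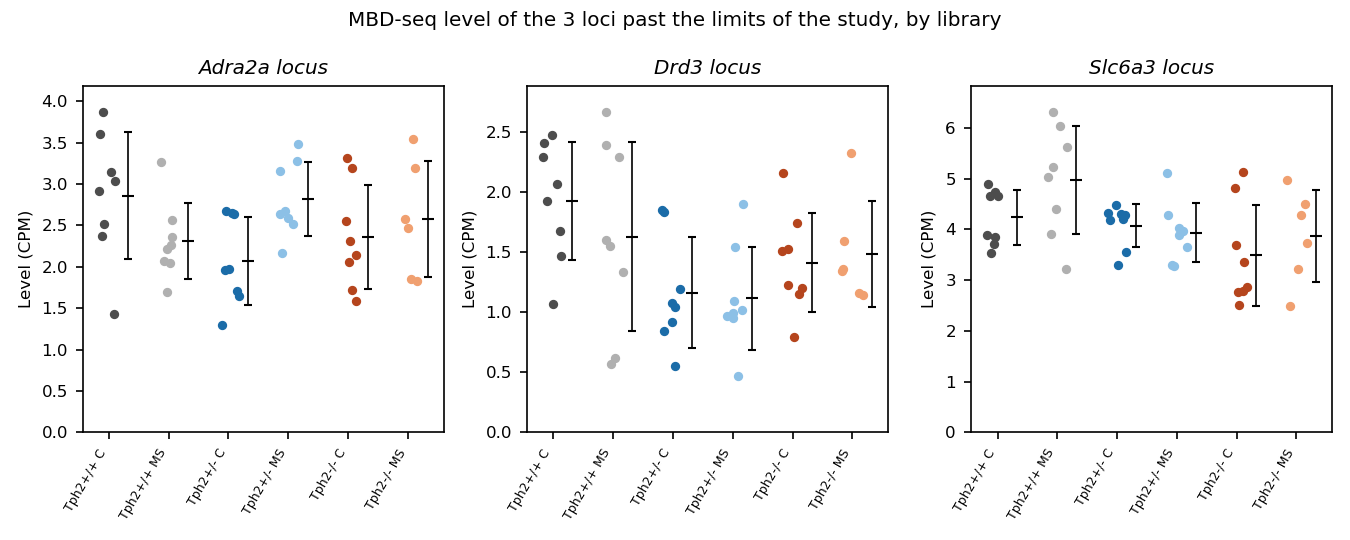
Each point is 1 library, and the vertical axis gives the level of the locus in CPM from 0. Bars give the mean ± SD of the group (n = 8, and 6 for Tph2-/- MS). The groups overlap in all 3 loci. The Drd3 locus is lowest in the Tph2+/- groups, with means of 1.16 and 1.12 CPM.

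Over the genes as a whole, 1 of the 9 passed an unadjusted p of 0.05 in GE2 (Adra2a, above; 3.28% of 37004 genes passed) and 1 in the MS effect over genotypes (17.9% of genes). None passed in GE1 (3.08%), in the MS effect in Tph2+/+ (7.2%), Tph2+/- (4.09%) or Tph2-/- mice (10.7%), or in Tph2-/- (4.49%) or Tph2+/- mice (3.01%) against Tph2+/+. No gene sum had an adjusted p under 0.05 in edgeR. That limit was passed by 0.0297% of all genes in the MS effect over genotypes, 0.0351% in Tph2-/- and 0.0216% in Tph2+/- mice, and 0% in the other 5 comparisons.

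The member past 0.05 in the MS effect over genotypes was Drd2, at an unadjusted limit that 17.9% of all genes passed there. Drd2 encodes the D2 receptor, the autoreceptor of dopamine neurons and the main target of antipsychotic drugs. Its summed level was lower under MS. The lowest, median and highest values were 11.4, 12.1 and 14.4 CPM in Tph2+/+ C and 8.53, 11.7 and 13.96 CPM in Tph2+/+ MS mice. They were 7.23, 12.5 and 13.99 CPM in Tph2+/- C and 7.86, 10.9 and 12.4 CPM in Tph2+/- MS mice. In Tph2-/- mice they were 10.4, 12.2 and 14.6 CPM under C and 6.88, 11.2 and 15.0 CPM under MS. The MS median was below that of C in each genotype, and the ranges overlapped in each. The mean MS effect was -0.16 on the log2 scale (SE 0.07, 95% interval -0.29 to -0.03, p = 0.0194 in the edgeR fit with n = 46, adjusted p = 0.2003), or 0.897 times the C level, and the effects within genotypes were -0.13 (Tph2+/+), -0.17 (Tph2+/-) and -0.17 (Tph2-/-).
By sample number, Drd2 averaged 12.5 ± 1.1 CPM in the C libraries S1 to S17 and 11.6 ± 2.3 CPM in the C libraries S42 to S48. In the MS libraries it averaged 10.5 ± 1.1 CPM in S18 to S26 and 11.3 ± 2.2 CPM in S27 to S41. Without S18 to S26, 14 MS libraries remained, and of Tph2-/- MS only replicates 5, 6 and 8. The MS effect was then -0.12 and did not pass 0.05, nor did it without Tph2-/- MS replicate 6, again at -0.12. It passed 0.05 in the other 9 settings run, at -0.19 with a term for the late controls S42 to S48 and at -0.13 with the CpG slope as a covariate. The part of sample order in the difference cannot be told apart from that of rearing.

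For the 8 other genes the MS effect over genotypes is given with its interval. Each interval is taken singly and covers the spread between libraries, not sample order or litter. The 9 intervals together ran from -0.29 to 0.17 on the log2 scale, and those of the genes with the most counts were narrowest. Th had -0.01 (95% interval -0.10 to 0.08), Slc6a2 0.02 (-0.06 to 0.10) and Drd3 -0.04 (-0.12 to 0.03). Drd1, with 1 locus, had -0.06 (-0.29 to 0.17). For Tph2-/- against Tph2+/+ mice the 9 intervals lay between -0.30 and 0.27, with Th at 0.02 (-0.09 to 0.13) and Dbh at -0.09 (-0.24 to 0.07). For Tph2+/- against Tph2+/+ mice they lay between -0.34 and 0.28, and 8 of the 9 estimates were negative. For the interactions they were wider, from -0.65 to 0.80 in GE1 and from -0.67 to 0.74 in GE2. These bounds come from Drd1, Adrb1 and Adra2a, which had few counts, whereas the interval of Drd3 ran from -0.10 to 0.25 in GE1 and from -0.25 to 0.12 in GE2.

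**Figure D5:**
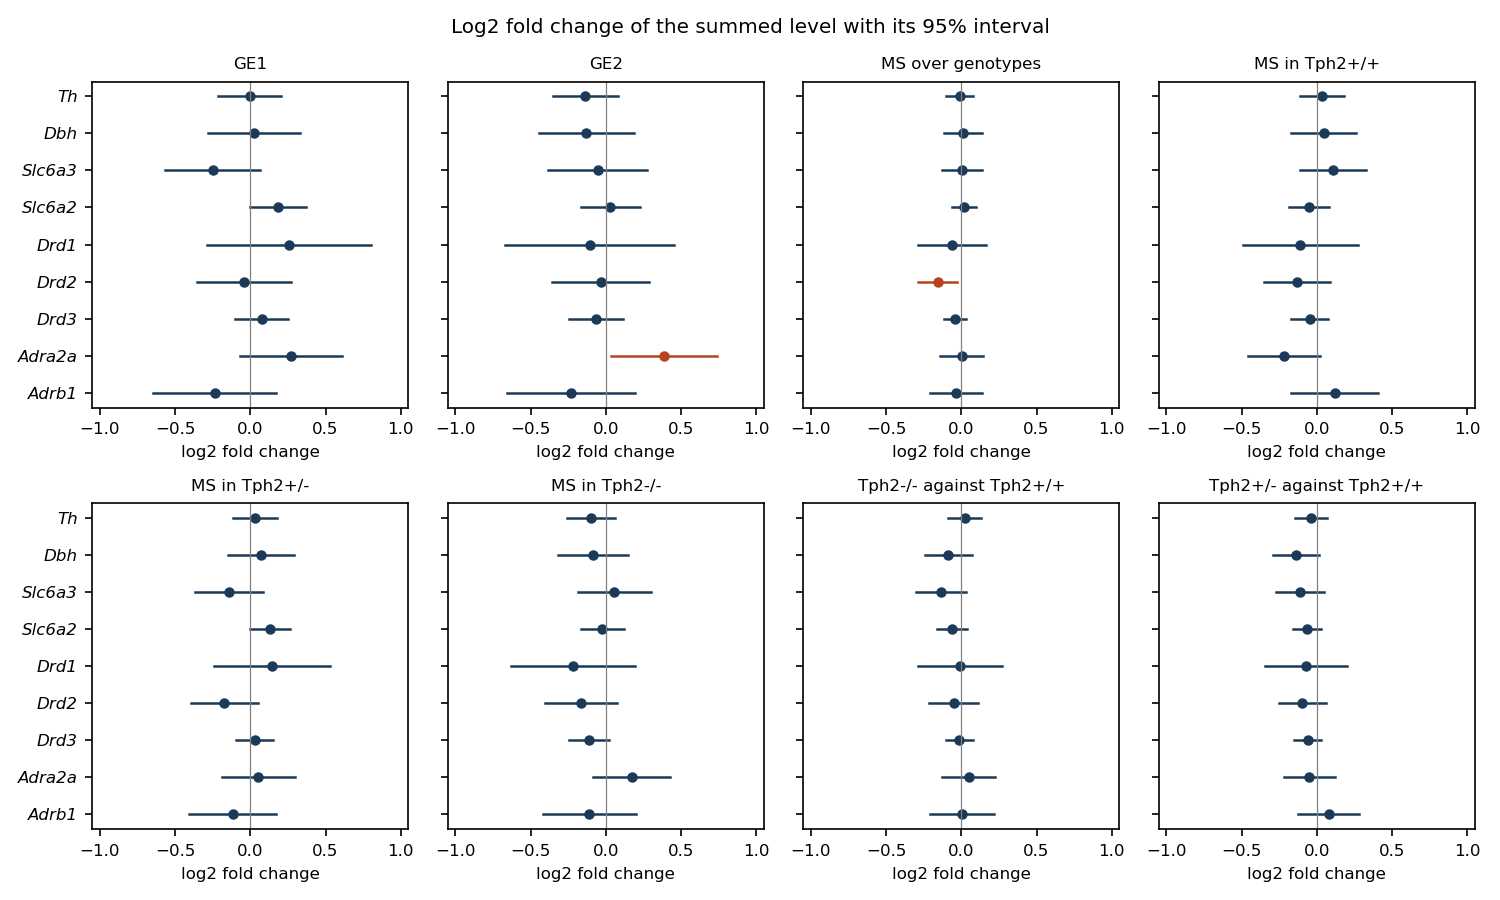
Points give the log2 fold change of the summed level of each gene in each of the 8 comparisons, and lines the 95% interval from edgeR. Orange marks the 2 of 72 estimates with an unadjusted p under 0.05, Drd2 in the MS effect over genotypes and Adra2a in GE2; all other intervals include 0.

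The locus over the Th promoter can be followed by itself. Its level was 0.24 higher on the log2 scale in Tph2-/- than in Tph2+/+ mice (SE 0.12, 95% interval 0.01 to 0.48, p = 0.0442 in the edgeR fit with n = 46, adjusted p = 0.9999), which is over the fold change limit but misses the p limit of 0.01. It was 1 of the 3 member loci with an unadjusted p under 0.05 in that comparison, where 4.08% of all loci passed. The sum of Th differed there by 0.02 (95% interval -0.09 to 0.13).

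The other genes of the catecholamine pathway were read from a list of 28, which holds enzymes, vesicle transporters, further receptors, signalling proteins of dopamine-receptive neurons and transcription factors of catecholamine neurons. Of these, 24 had a locus. None of their 162 loci had an adjusted p under 0.05 in edgeR, in either direction, in any of the 8 comparisons. At the limits on p and fold change, 6 were called in the MS effect over genotypes, which is 3.70% against 3.63% of all loci, and 5 of these 6 were higher under MS (2.28% of all loci were called higher). Of the 162 loci, 0.617% were called in GE1 and 1.23% in GE2, against 0.626% and 0.558% of all loci. For the MS effect within a genotype these shares were 3.09% for Tph2+/+ (5 loci, 1.31% of all loci), 1.23% for Tph2+/- (2 loci, 0.779%) and 2.47% for Tph2-/- (4 loci, 1.48%). For the genotypes they were 0.617% for Tph2-/- (1 locus, 0.748%) and 1.23% for Tph2+/- (2 loci, 0.546%). The smallest p of a single locus of the list was at Gng7, which encodes a G-protein gamma subunit that pairs with the Drd1 receptor's G protein in the striatum. Its locus chr10:80975169-80976974 was 0.28 higher under MS (SE 0.07, p = 0.000253 in the edgeR fit with n = 46, adjusted p = 0.12).

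Summed over each gene, 8 of the 24 passed an unadjusted p of 0.05 in the MS effect over genotypes, all 8 higher under MS. Over all genes, 13.2% passed in that direction. As for the members, sample order and rearing cannot be told apart here. Neither the loci nor the sums of this list were refitted without S18 to S26, with the CpG slope or without single libraries. For the MS effect within a genotype, 4 passed for Tph2+/+ (7.2% of all genes), 2 for Tph2+/- (4.09%) and 5 for Tph2-/- (10.7%), of which 1, Gch1 in Tph2-/- mice, was lower under MS. In GE1 1 passed (3.08%), and in GE2 and the genotype comparisons 0 passed an unadjusted p of 0.05 in edgeR. The smallest p was at Adra1d, which encodes an alpha-1 adrenergic receptor. Its sum was 0.44 higher under MS in Tph2+/+ mice (SE 0.11, 95% interval 0.22 to 0.66, p = 0.000164 in the edgeR fit with n = 46, adjusted p = 0.618), with -0.09 in Tph2+/- and 0.12 in Tph2-/- mice. Its GE1 was -0.53 (SE 0.15, 95% interval -0.84 to -0.22, p = 0.00111 with n = 46, adjusted p = 0.9996). None of the 24 had an adjusted p under 0.05. In the MS effect over genotypes, 1 of the 9 members passed an unadjusted p of 0.05, Drd2, in the lower direction.

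Each member had a different gene as the one whose summed level varied most like its own over the 46 libraries. Th was most like Cyp26b1 (Pearson's r of log2 CPM 0.658, Spearman's rho 0.682), Dbh like Birc5 (0.604 and 0.592), Slc6a3 like AC123621.1 (0.550 and 0.591), Slc6a2 like Gm34294 (0.644 and 0.542), Drd1 like Rbms2 (0.541 and 0.462) and Drd2 like 6430710C18Rik (0.592 and 0.564). Drd3 was most like Gm17315 (0.525 and 0.450), Adra2a like Gm48490 (0.543 and 0.498) and Adrb1 like Vipas39 (0.571 and 0.452). Each is the highest of 24467 to 24470 genes that share libraries and sequencing depth, and is given as a description. Among the 9 members the highest r was 0.267, between Slc6a3 and Adrb1, and the lowest -0.228, between Slc6a2 and Adrb1.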

How the data were processed

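Raw MBD-seq read counts per locus were deposited by the authors as 1 table of 48 libraries. Per their methods, paired-end reads were mapped to GRCm38 with Bowtie2 2.1.0, peaks were called with MACS, and counts within merged peaks were made with DiffBind 2.0.9; handling of duplicate reads was not given in the sources used here. Counts were tested as deposited for all 187695 loci with edgeR 4.0.16 (TMM, trended dispersion, robust quasi-likelihood F-test, 1 term per group, 46 libraries, no filter), and likewise for sums per gene over 37004 GENCODE M21 genes with a locus. CPM used the same library sizes and TMM factors. Intervals are 95%. DESeq2 1.42.0 and limma 3.58.1 served as alternatives, as did other libraries, covariates, a replicate block and gene bodies alone. Totals of 7724481 to 14133801 counts limit the precision; p-values measure the spread between mice. Named were all members, their called loci, and for each gene the locus at or nearest the start and the highest one. The members, lists and tests were chosen with earlier results of these data known.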

Additional observations from a re-analysis of the deposited data

Results flagged for a closer look

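Over 72 sets of samples (54 of summed gene levels by group and 18 of the 3 called loci by group), 1 sample stood far from the rest of its group 3 times, each in a summed level, and chance alone gives about 1 in 20. Slc6a3 was highest in Tph2+/- MS replicate 2 at 9.529 CPM, with the other 7 samples at 6.395 to 7.626 CPM. Drd2 was lowest in Tph2+/- C replicate 7 at 7.229 CPM, with the others at 10.92 to 13.99 CPM. Adra2a was highest in Tph2+/- C replicate 2 at 9.343 CPM, with the others at 5.52 to 7.252 CPM.

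The Adra2a locus chr19:54043088-54044115 is listed because the MS effect differed between Tph2+/- and Tph2+/+ mice by 0.7563 on the log2 scale at the unadjusted limit, with an adjusted p of 1 (edgeR, n = 46).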

How the results depend on the processing

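DESeq2 size factors, a low-count filter (all 49 loci kept), the DESeq2 Wald test and RefSeq gene bodies (an alternative chosen after seeing the data, for loci only) left every count of called loci as reported. With the gene body alone, 0 loci were called in GE1, since the Adra2a locus lies outside it, and 0 genes passed in GE2. In limma voom 0 loci were called in GE1, 0 in Tph2+/- against Tph2+/+ mice and 1 (Slc6a2, chr8:92968519-92969314) in the MS effect over genotypes, and 1 gene passed in GE1 (Slc6a2), 2 in GE2 (Th and Adra2a), 1 in the MS effect in Tph2-/- mice (Th) and 1 in Tph2+/- against Tph2+/+ mice (Dbh). With all 48 libraries, 1 locus was called in the MS effect over genotypes (Slc6a2, the same one), 1 in Tph2-/- mice (Th, chr7:142930422-142931435), and 0 genes passed in GE2. Leaving out S18 to S26 kept 14 MS libraries, and of Tph2-/- MS only replicates 5, 6 and 8. In that setting 1 gene passed in GE1 (Adrb1) and 0 in the MS effect over genotypes. For MS within a genotype, 2 passed in Tph2+/- (Slc6a2 and Adrb1) and 1 in Tph2-/- mice (Th). The 1 locus called in GE1 was then at Adrb1 (chr19:56734870-56735697, 76.2% repeats). A term for the late controls S42 to S48 gave 1 locus in the MS effect over genotypes (Drd2, chr9:49401735-49402641) and 1 gene in Tph2-/- mice (Drd3). The CpG slope as a covariate gave 1 gene in GE1 (Slc6a2), 1 in the MS effect in Tph2+/- (Slc6a2) and 1 in Tph2-/- mice (Th). Causes were not tested. With the gene body alone the GE2 of the Adra2a sum reversed, to -0.1596, since 1 of its 3 loci is left. Signs were followed for the 3 called loci and the 2 gene sums past 0.05, and no other setting reversed one.

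Leaving out single libraries gave 0.6801 to 0.8512 for the Adra2a locus, -0.3752 to -0.2741 for the Slc6a3 locus and -0.6772 to -0.5349 for the Drd3 locus. For the gene sums, an alternative chosen after seeing the data, it gave 0.2997 to 0.4375 for Adra2a in GE2 and -0.1949 to -0.1242 for Drd2 in the MS effect over genotypes. Samples with the same replicate number had a median r of 0.0129 over 110 pairs, 11 of them over 0.1. Pairs with different numbers had a median r of -0.000878 over 770 pairs, 49 of them over 0.1. Whether samples of the same number share more than that number was not tested. With the replicate number as a block, 1 locus was called in the MS effect over genotypes (Slc6a2, chr8:92968519-92969314), and the block changed no other count. Loci with few counts, such as the Drd3 locus with a mean of 16.04, have wide intervals.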
